A study of Mus musculus with 12 samples.

Results

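Krüppel-like factors (KLFs) were followed in RNA from intestinal stem cells (ISCs) of mice after a single exposure to restraint stress or corticosterone. The 10 members were *Klf2*, *Klf3*, *Klf4*, *Klf5*, *Klf6*, *Klf9*, *Klf10*, *Klf11*, *Klf13* and *Klf15*, taken by symbol from a table of 47729 genes. All 10 were found once in the table. *Klf9*, *Klf6* and *Klf11* rose in ISCs of stressed mice, and *Klf9*, *Klf15*, *Klf13*, *Klf6* and *Klf5* rose after corticosterone while *Klf10* and *Klf4* fell. The stress libraries also held more RNA of enterocyte markers, and the rises in stress could not be separated from it. With 1 library left out, the rises of *Klf6* and *Klf11* in stress passed the test in only 1 of 6 fits each. The fall of *Klf4* passed in 0 of 6, whereas *Klf9* passed in 6 of 6 for both treatments. *Klf9* rose 2.10-fold in stress and 2.79-fold after corticosterone, and *Klf15* rose 3.14-fold after corticosterone.

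The study sorted live Lgr5-EGFP-hi cells out of crypts of the small intestine from mice of the Lgr5-EGFP-IRES-CreERT2 genotype, a knock-in line in which the promoter of the stem cell gene *Lgr5* drives both the green fluorescent protein and a tamoxifen-inducible Cre. All 4 groups carried this allele. The mice were of both sexes and 8 to 10 weeks old, with the sex of each library not given. Ctrl mice were neither restrained nor injected, and the study describes its controls as kept without food and water while the stressed mice were restrained. Stress mice (titled CRS in the labels) were restrained in a tube for 3 h on 1 day. Vehicle mice received an intraperitoneal injection of 20% sulfobutylether-β-cyclodextrin, and CORT mice received corticosterone at 5 mg/kg in that solution. Each group had 3 libraries, which the study calls biologically independent: Ctrl 1, 2 and 3, stress 1+2, 3 and 4+5+6, vehicle 3, 5 and 6, and CORT 2, 4 and 5. The joined numbers of 2 stress libraries read as pools of mice.

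KLFs are transcription factors that bind GC-rich and CACCC-type DNA through C2H2 zinc fingers at their C-terminal end. Their N-terminal ends differ and recruit coactivators or corepressors, so that members can act in opposite ways on the same DNA. In the gut, KLF5 is known from dividing crypt cells and KLF4 from differentiated cells of the villus and from goblet cells, and *Klf9*, *Klf13* and *Klf15* are known as glucocorticoid-induced genes in several other tissues. Corticosterone is the main glucocorticoid of the mouse, and it acts through the glucocorticoid receptor (GR), a DNA-binding nuclear receptor.

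The sequences just before the genes are shown because several members moved together after corticosterone. They are the 250 bases upstream of the RefSeq start (GRCm38.p6), found for 8 of the 10 members. *Klf5* and *Klf10* had no entry. The 6 shown belong to the members that rose in either comparison, with *Klf4*, which fell after corticosterone, and are written 5′ to 3′ on the strand of the gene. Capitals mark matches on either strand to the E-box CACGTG, the GT box CACCC, the GC box GGGCGG and the CCAAT box CCAAT, and neighbouring or overlapping matches run together.
*Klf9* (chr19:23140976-23141225, plus strand): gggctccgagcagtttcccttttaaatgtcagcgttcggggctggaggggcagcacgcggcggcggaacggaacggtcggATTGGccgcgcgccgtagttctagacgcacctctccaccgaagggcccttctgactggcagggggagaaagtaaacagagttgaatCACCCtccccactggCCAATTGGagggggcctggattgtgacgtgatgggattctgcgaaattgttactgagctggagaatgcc
*Klf13* (chr7:63938916-63939165, minus strand): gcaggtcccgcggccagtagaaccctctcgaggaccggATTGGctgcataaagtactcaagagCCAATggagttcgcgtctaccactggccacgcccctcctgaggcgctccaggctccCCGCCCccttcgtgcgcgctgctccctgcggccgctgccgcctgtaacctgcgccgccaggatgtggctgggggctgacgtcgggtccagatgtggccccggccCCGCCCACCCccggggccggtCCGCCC
*Klf15* (chr6:90462326-90462575, plus strand): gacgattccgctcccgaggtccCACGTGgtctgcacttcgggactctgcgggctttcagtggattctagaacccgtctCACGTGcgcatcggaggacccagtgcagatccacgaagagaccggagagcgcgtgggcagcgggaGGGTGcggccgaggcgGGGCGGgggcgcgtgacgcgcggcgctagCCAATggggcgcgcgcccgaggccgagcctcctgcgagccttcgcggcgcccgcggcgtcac
*Klf6* (chr13:5861239-5861488, plus strand): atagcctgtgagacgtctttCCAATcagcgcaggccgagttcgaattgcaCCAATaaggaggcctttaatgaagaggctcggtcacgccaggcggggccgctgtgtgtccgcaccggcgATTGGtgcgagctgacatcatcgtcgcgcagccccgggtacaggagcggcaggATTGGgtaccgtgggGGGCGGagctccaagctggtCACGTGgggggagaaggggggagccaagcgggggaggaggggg
*Klf11* (chr12:24651121-24651370, plus strand): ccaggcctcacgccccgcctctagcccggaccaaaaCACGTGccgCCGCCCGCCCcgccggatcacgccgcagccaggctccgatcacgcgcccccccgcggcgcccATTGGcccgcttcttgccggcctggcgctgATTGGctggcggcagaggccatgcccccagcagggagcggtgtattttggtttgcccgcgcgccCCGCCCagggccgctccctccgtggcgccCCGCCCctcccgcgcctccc
*Klf4* (chr4:55532476-55532725, minus strand): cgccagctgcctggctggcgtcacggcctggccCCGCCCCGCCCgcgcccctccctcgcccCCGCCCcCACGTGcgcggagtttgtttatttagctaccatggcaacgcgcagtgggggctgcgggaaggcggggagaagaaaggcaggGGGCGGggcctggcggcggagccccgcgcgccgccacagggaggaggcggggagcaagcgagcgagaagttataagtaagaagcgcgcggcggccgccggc

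The E-box letters occurred in 4 of the 8 members (*Klf4*, *Klf6*, *Klf11* and *Klf15*, the last with 2 matches) and in 6.02% of all 32851 promoters of this length. GC boxes occurred in 7 of 8 members against 32.7% of all promoters, CCAAT boxes in 5 of 8 against 33.8%, and GT boxes, the letters that KLFs themselves bind, in 5 of 8 against 52.0%. The *Klf9* window was the one of the 8 without a GC box. It held 1 GT box and 3 CCAAT boxes, of which the last 2 overlap. The half-site AGAACA and the spaced core ACANNNTGT, both known from GR binding sites, were found in none of the 8 windows, against 16.1% and 5.84% of all promoters, which says only that these letters are not in these windows. The member windows had a median GC content of 71.8%, and all promoters had 52.4%, so the base composition differs between them. These are matches of letters and not measured sites.

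RNA levels per gene are given as CPM, the counts scaled to library size with TMM factors over the 12 libraries, and levels between genes as the deposited FPKM, which also divides by gene length. Total counts were 15934907 to 17135770 in Ctrl and stress, 16465961 to 31280267 in vehicle and 29426183 to 69533214 in CORT. CORT was thus the deepest group. A gene with a count of 0 could still have had 3 read pairs, up to 12 counts or 0.182 to 0.740 CPM depending on the library, and this limit covers counting error only. Markers of ISCs (6 genes with *Olfm4*, *Lgr5* and *Axin2* among them) had medians of 441 to 604 CPM across the libraries, in each case above each of 7 lists for other cell types. Endothelial and stromal markers summed to at most 4.07 CPM. In bulk RNA, fewer cells of a type and less RNA per cell cannot be told apart.

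*Klf5* was the most abundant member in every group. Its mean was 122 ± 6.87 FPKM in Ctrl (SD, n = 3), followed by *Klf3* at 31.3 ± 2.54, *Klf13* at 13.4 ± 0.643, *Klf9* at 12.2 ± 1.33 and *Klf10* at 10.2 ± 1.69. *Klf4* (6.14 ± 1.01), *Klf6* (6.13 ± 0.830) and *Klf11* (4.57 ± 0.181) were lower, *Klf15* was at 0.754 ± 0.359, and *Klf2* was at 0.275 ± 0.0536. The ranges of *Klf13* and *Klf9* overlapped in Ctrl, as did those of *Klf9* and *Klf10* and of *Klf4* and *Klf6*, and the other neighbours in this order were separate. In stress *Klf9* stood next after *Klf3* at 25.6 ± 3.49 FPKM, as it did in CORT at 24.8 ± 3.50. Its range overlapped that of *Klf3* in both groups (32.0 ± 3.87 in stress and 24.9 ± 2.38 in CORT), and in CORT also that of *Klf13* (22.6 ± 1.93). In CORT *Klf15* (4.93 ± 0.893) stood above *Klf4* (3.05 ± 0.713), with no overlap, whereas it stood below *Klf4* in the other 3 groups.

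The FPKM of the 10 members summed to 207 ± 3.08 in Ctrl and 266 ± 26.8 in stress, and 191 ± 10.3 in vehicle and 240 ± 18.1 in CORT (SD, n = 3). *Klf5* made up 59.0% ± 2.91, 58.2% ± 1.13, 54.3% ± 2.46 and 58.4% ± 2.32 of that sum in the same order. The share of *Klf9* was 5.90% ± 0.693 in Ctrl and 9.60% ± 0.568 in stress, and 4.92% ± 0.554 in vehicle and 10.3% ± 0.809 in CORT. *Klf10* went the other way in the injected groups, with 8.17% ± 1.82 in vehicle and 2.87% ± 0.930 in CORT. The share of *Klf15* was 0.858% ± 0.298 in vehicle and 2.04% ± 0.291 in CORT.

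**Figure D1:**
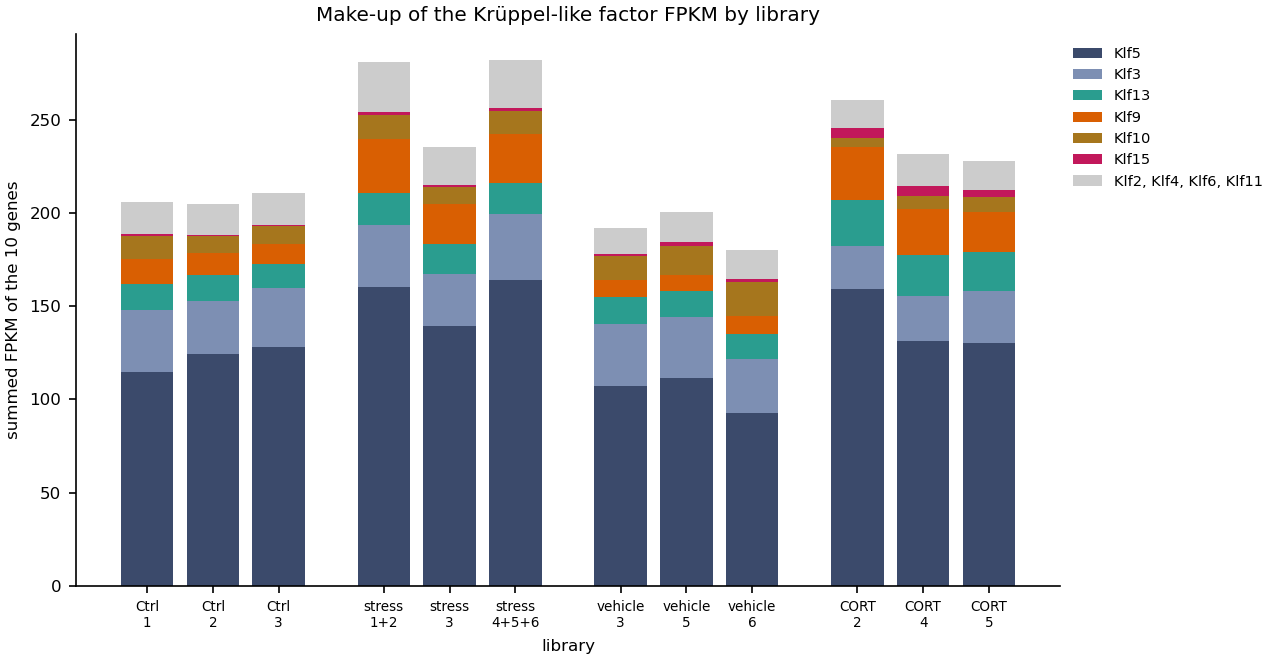
Summed FPKM of the 10 Krüppel-like factors (y axis) in each of the 12 libraries (x axis, group and number), with 1 stacked bar per library and 1 colour per gene, and with *Klf2*, *Klf4*, *Klf6* and *Klf11* joined in grey. *Klf5* forms 54.3 to 59.0% of the bar on average in each group, and the *Klf9* part is wider in stress and CORT than in Ctrl and vehicle.

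The question of the first comparison was how restraint changed the members in ISCs relative to Ctrl, and of the second how corticosterone changed them relative to vehicle. In stress vs. Ctrl, 3 of the 10 members tested were higher and 0 lower at an adjusted p below 0.05 (edgeR's quasi-likelihood test, Benjamini-Hochberg over 13722 genes), where 1.3% and 0.59% of all genes tested were higher and lower. Only 1 of these members, *Klf9*, was also past 2-fold, against 0.751% of all genes in either direction. The stress and Ctrl libraries did not overlap for 6 members, all higher in stress, and 20.4% of all genes did not overlap. In CORT vs. vehicle, 5 of 9 members tested were higher and 2 lower, against 3.64% and 4.5% of 14656 genes. Of these, 3 (*Klf9*, *Klf15* and *Klf10*) were past 2-fold, against 1.87% of all genes. None of the 9 overlapped between CORT and vehicle, against 28.7% of all genes without overlap. The median log2 fold change of the members was 0.34 in stress and 0.51 in CORT, and that of all genes was -0.0028 and 0.0139.

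**Figure D2:**
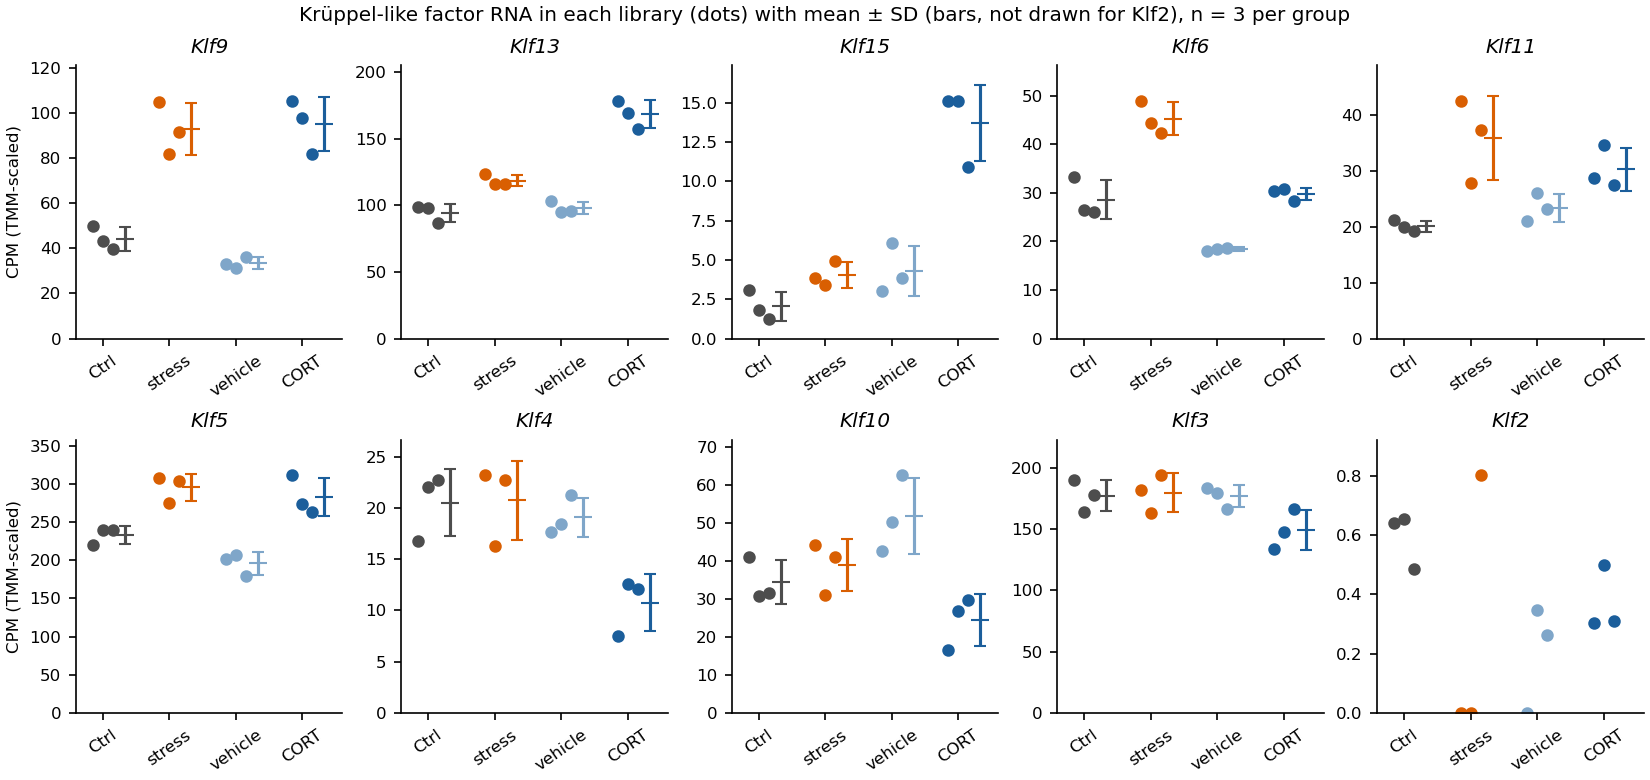
CPM of each member (y axes, linear from 0) in the 12 libraries, grouped by Ctrl, stress, vehicle and CORT on the x axes. Each library is a dot, and a bar gives the mean ± SD of 3, except for *Klf2*, which has no bar. For *Klf9* all stress and CORT libraries lie at 81.9 CPM or above and all Ctrl and vehicle libraries at 49.8 CPM or below, whereas for *Klf4* and *Klf10* the CORT libraries are the lowest.

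KLF9, KLF10, KLF11 and KLF13 share an N-terminal motif that binds the corepressor Sin3A. In stress 2 of these 4 genes were called higher, against 1.3% of all genes tested. After corticosterone 2 were called higher and 1 lower, against 3.64% and 4.5% of all genes. *Klf9* (ENSMUSG00000033863, mm10 chromosome 19, 23141226 to 23166911, plus strand) is known as a glucocorticoid and thyroid hormone target that restrains proliferation in several cell types. It was at 49.8, 43.2 and 39.5 CPM in Ctrl 1, 2 and 3 and at 105, 81.9 and 91.6 CPM in stress 1+2, 3 and 4+5+6. In vehicle 3, 5 and 6 it was at 33.2, 31.1 and 36.3 CPM, and in CORT 2, 4 and 5 at 105, 97.5 and 81.9 CPM. Every stress library lay above every Ctrl library and every CORT library above every vehicle library. Restraint gave a log2 fold change of 1.07 ± 0.12 (standard error, as in all fold changes here that carry a ±) at an adjusted p of 0.00248, and corticosterone one of 1.48 ± 0.10 at an adjusted p of 1.3e-04. The call held in 6 of 6 fits that left out 1 library, in both comparisons. The means reached in stress (92.8 ± 11.5 CPM) and CORT (94.9 ± 11.9 CPM) lay side by side, while the starting means were 44.2 ± 5.21 in Ctrl and 33.5 ± 2.65 in vehicle (SD, n = 3).

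*Klf13* (ENSMUSG00000052040, chromosome 7, 63886351 to 63938915, minus strand) encodes a close relative of KLF9, also known as a regulator of the chemokine *Ccl5* in T cells. It was at 98.5, 97.7 and 86.8 CPM in Ctrl and 124, 116 and 116 in stress, and 104, 94.9 and 95.8 in vehicle and 178, 169 and 158 in CORT, in the library order above. The stress libraries were above Ctrl and the CORT libraries above vehicle with no overlap. The difference passed the test in CORT (log2 fold change 0.76 ± 0.08, adjusted p = 7.2e-04) and not in stress (log2 fold change 0.33 ± 0.09, adjusted p = 0.0948). In stress the adjusted p was 0.0402 with DESeq2 and 0.0301 with all 12 libraries in the fit. *Klf13* overlaps *Gm27252* and *E030018B13Rik* on the opposite strand, to which group means of at most 0.812 CPM were assigned. Whether counting used strand is not known, so these values do not show how many of their reads were counted as *Klf13*.

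*Klf11* and *Klf10* are known as genes induced early by TGF-beta. *Klf11* (ENSMUSG00000020653, chromosome 12, 24651371 to 24662774, plus strand) was at 21.2, 19.9 and 19.2 CPM in Ctrl and 42.6, 27.9 and 37.4 CPM in stress. All stress libraries were above Ctrl, with a log2 fold change of 0.84 ± 0.16 (adjusted p = 0.0332). The call was lost without any of Ctrl 1, Ctrl 2, Ctrl 3, stress 1+2 or stress 4+5+6, with adjusted p-values up to 0.147, and held without stress 3 (0.0024). In vehicle it was at 21.0, 26.0 and 23.1 CPM and in CORT at 28.7, 34.7 and 27.5 CPM, again with no overlap but without passing the test (log2 fold change 0.35, adjusted p = 0.148).

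*Klf10* (ENSMUSG00000037465, chromosome 15, 38294413 to 38300707, minus strand) was at 41.2, 30.7 and 31.6 CPM in Ctrl, 44.3, 31.2 and 41.2 CPM in stress, 42.7, 50.3 and 62.7 CPM in vehicle and 16.7, 26.7 and 29.7 CPM in CORT. Ctrl and stress overlapped (log2 fold change 0.18, adjusted p = 0.685). CORT lay below vehicle in all libraries and was 2.17-fold lower (log2 fold change -1.12 ± 0.21, adjusted p = 0.0139), a call that was lost without vehicle 6 (adjusted p = 0.0539). Vehicle itself lay above Ctrl with no overlap, with a log2 fold change of 0.59 that did not pass the test (adjusted p = 0.140). The contrast of CORT with vehicle is thus set against a vehicle mean of 51.9 ± 10.1 CPM, whereas the Ctrl mean was 34.5 ± 5.80 and the CORT mean 24.4 ± 6.83 (SD, n = 3). Of 7 genes of the TGF-beta pathway around these factors, 6 were tested. After corticosterone *Smad4*, the shared signal carrier, and *Smad7*, an inhibitor of the pathway, rose (log2 fold changes 0.31 and 0.56, adjusted p = 0.0429 and 0.0430) and *Tgfbr2*, a receptor, fell (-0.49, 0.0294). In stress 0 of the 6 were called.

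KLF2, KLF4, KLF5 and KLF6 are activators with acidic N-terminal ends. In stress 1 of these 4 genes was called higher, against 1.3% of all genes tested. After corticosterone 2 of the 3 tested were called higher and 1 lower, against 3.64% and 4.5% of all genes. *Klf5* (ENSMUSG00000005148, chromosome 14, 99298691 to 99313405, plus strand), known for promoting the division of crypt cells, was at 220, 240.0 and 239 CPM in Ctrl and 308, 276 and 304 CPM in stress. It was at 202, 206 and 179 CPM in vehicle and 312, 274 and 263 CPM in CORT. No treated library overlapped its controls. The rise passed the test in CORT (log2 fold change 0.51 ± 0.09, adjusted p = 0.0107) and not in stress (log2 fold change 0.35 ± 0.08, adjusted p = 0.0728), where the adjusted p ranged from 0.0051 with DESeq2 to 0.299 over the alternatives. Without stress 3 it was 0.0163.

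*Klf4* (ENSMUSG00000003032, chromosome 4, 55527143 to 55532466, minus strand), known for cell cycle arrest and for goblet cell formation, was at 16.8, 22.0 and 22.7 CPM in Ctrl and 23.2, 16.3 and 22.7 CPM in stress. These ranges overlapped almost wholly (log2 fold change 0.02 ± 0.19). It was at 17.6, 18.5 and 21.3 CPM in vehicle and at 7.53, 12.6 and 12.1 CPM in CORT, lower in all 3 CORT libraries. The fall of 1.81-fold passed the test (log2 fold change -0.86 ± 0.21, adjusted p = 0.0348). It did not pass in any of the 6 fits that left out 1 library, whichever of vehicle 3, 5 and 6 or CORT 2, 4 and 5 it was, with log2 fold changes from -0.99 to -0.65 and adjusted p-values from 0.0504 to 0.0993.

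*Klf6* (ENSMUSG00000000078, chromosome 13, 5861489 to 5870393, plus strand), known as an injury-induced gene, was at 33.3, 26.5 and 26.1 CPM in Ctrl and 48.9, 44.4 and 42.3 CPM in stress. It was at 18.0, 18.4 and 18.7 CPM in vehicle and 30.3, 30.8 and 28.4 CPM in CORT. The rises were alike in size, with log2 fold changes of 0.66 ± 0.13 for restraint (adjusted p = 0.0332) and 0.68 ± 0.11 for corticosterone (adjusted p = 0.0056). The stress call was lost without any of Ctrl 1, Ctrl 2, Ctrl 3, stress 1+2 or stress 4+5+6 (adjusted p up to 0.153) and held without stress 3, whereas the CORT call held in 6 of 6 such fits. The 3 vehicle libraries lay below the 3 Ctrl libraries (log2 fold change -0.64 ± 0.14, adjusted p = 0.0763), and the CORT mean of 29.8 ± 1.27 CPM lay next to the Ctrl mean of 28.6 ± 4.04 (SD, n = 3). The adjusted p of vehicle vs. Ctrl was 0.0124 with DESeq2 and 0.0243 with all 12 libraries in the fit.

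*Klf2* (ENSMUSG00000055148, chromosome 8, 72319033 to 72321656, plus strand), a factor of endothelial cells and resting lymphocytes, had 0 to 29 counts per library and at most 0.802 CPM. In 9 of 12 libraries it had 12 counts or fewer, within what a count of 0 allows, and in 3 libraries it had none. It passed the filter on low counts in stress vs. Ctrl, with no call (adjusted p = 0.726), and not in CORT vs. vehicle. A change was not detectable at this depth. Of 6 genes of the kinase cascade upstream of *Klf2* and *Klf4* (*Mapk7*, *Map2k5*, *Map3k3* and the *Mef2* factors), 5 were tested and 0 were called in either comparison.

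*Klf3* and *Klf15* stand outside these groups. KLF3 is a repressor that recruits CtBP proteins. *Klf3* (ENSMUSG00000029178, chromosome 5, 64803388 to 64832901, plus strand) was at 190, 165 and 178 CPM in Ctrl and 182, 163 and 194 in stress, and 184, 180.0 and 167 in vehicle and 134, 148 and 167 in CORT. Ctrl and stress overlapped, and CORT lay just below vehicle with the highest CORT library (166.8) beside the lowest vehicle library (166.9). The log2 fold changes were 0.02 (adjusted p = 0.942) and -0.27 (adjusted p = 0.136). The overlapping *Gm20033* and *C230096K16Rik* had group means of at most 2.33 CPM.

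KLF15 is known for driving amino acid breakdown and gluconeogenesis in liver and muscle. *Klf15* (ENSMUSG00000030087, chromosome 6, 90462576 to 90475238, plus strand) was at 3.08, 1.78 and 1.27 CPM in Ctrl, 3.83, 3.38 and 4.93 CPM in stress, 3.01, 6.07 and 3.85 CPM in vehicle and 15.1, 15.1 and 10.9 CPM in CORT. Its CORT libraries stood above all others. It rose 3.14-fold over vehicle (log2 fold change 1.65 ± 0.27, adjusted p = 0.0063), and the call held in 6 of 6 fits that left out 1 library. In stress the libraries lay above Ctrl without overlap, with a log2 fold change of 0.98 ± 0.42 that did not pass the test (adjusted p = 0.297), on 21 to 86 counts per library. The stress mean of 4.04 ± 0.799 CPM was near the vehicle mean of 4.31 ± 1.58 (SD, n = 3).

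**Figure D3:**
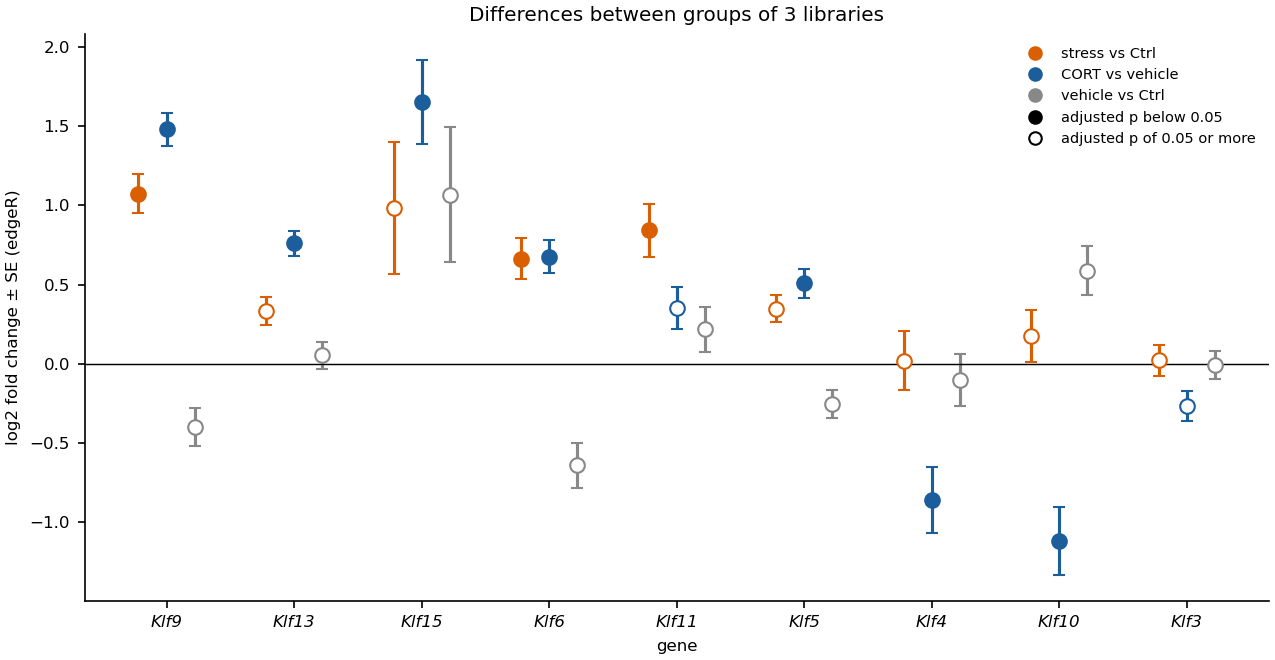
Log2 fold change with its standard error (y axis, edgeR) of the 9 members other than *Klf2* (x axis) in stress vs. Ctrl, CORT vs. vehicle and vehicle vs. Ctrl, with filled dots for an adjusted p below 0.05. *Klf9* and *Klf6* are filled in both treatments, *Klf11* in stress, and *Klf13*, *Klf15*, *Klf5*, *Klf4* and *Klf10* in CORT, and no dot of vehicle vs. Ctrl is filled.

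A gene called in 1 treatment and not in the other is not thereby shown to respond differently, so the difference between the responses was tested in all 12 libraries as stress minus Ctrl less CORT minus vehicle. None of the 10 members passed (edgeR, 0 of 10), against 0.388% of 14415 genes. At an unadjusted p below 0.05 there were 5 of the 10, against 12.5% of all genes. DESeq2 called 2 of them, *Klf10* (adjusted p = 0.0025) and *Klf13* (0.0199). The log2 difference was 1.29 ± 0.30 for *Klf10* (adjusted p = 0.0863), 0.87 ± 0.29 for *Klf4* (adjusted p = 0.216) and -0.43 ± 0.11 for *Klf13* (adjusted p = 0.0972), and that of *Klf10* passed the test without stress 3 (adjusted p = 0.0338). For *Klf9* it was -0.41 ± 0.17 and for *Klf6* -0.02 ± 0.16.

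Between the control groups, vehicle and Ctrl, 0 of 9 members were called by edgeR, against 0.799% of all genes. At an unadjusted p below 0.05 there were 5 of the 9, against 11.1% of all genes. DESeq2 called 2, *Klf6* and *Klf10*. In 4 of the 9 members tested the groups did not overlap, with *Klf10* higher and *Klf6*, *Klf9* and *Klf5* lower in vehicle, against 16.2% of all genes. Vehicle and Ctrl differ by the injection and by what the controls underwent, and the design does not separate these.

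**Figure D4:**
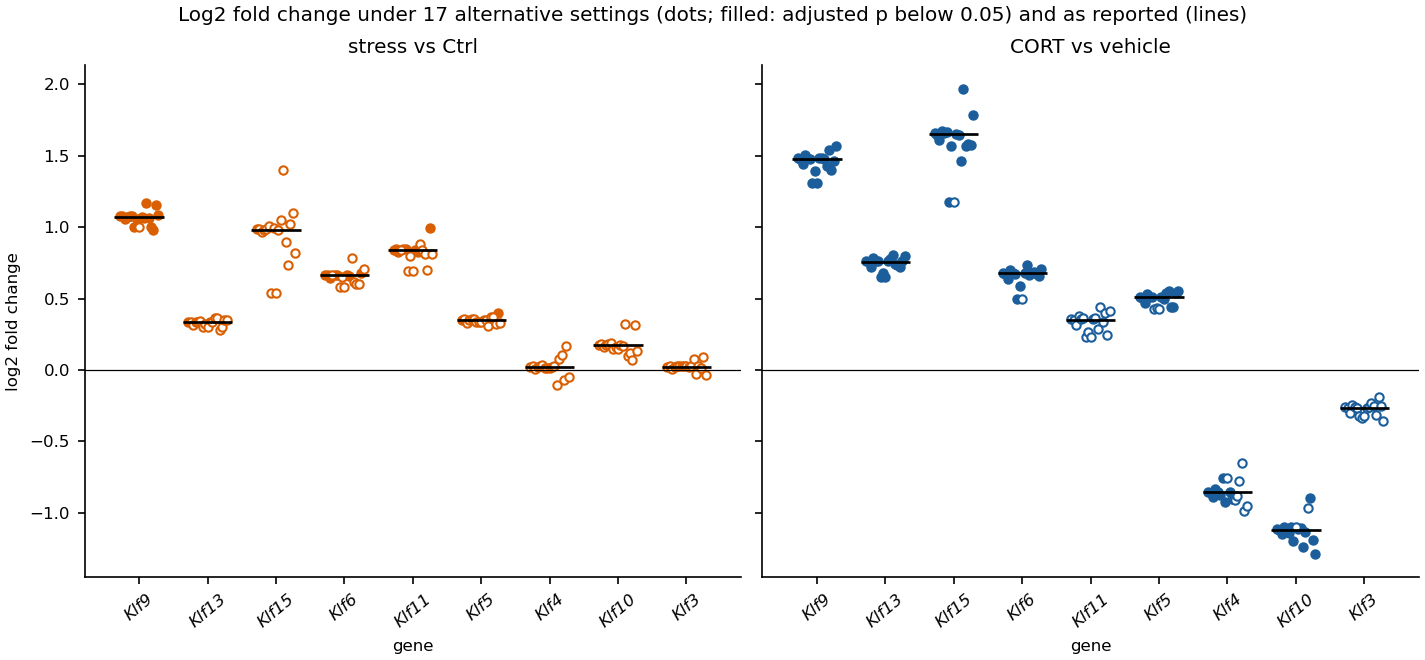
Log2 fold change (y axis) of 9 members (x axis) in stress vs. Ctrl and in CORT vs. vehicle, as reported (lines) and under 17 other settings (dots, filled where the adjusted p is below 0.05). *Klf9*, *Klf13*, *Klf15*, *Klf6* and *Klf5* stay above 0 in CORT and *Klf4*, *Klf10* and *Klf3* below 0, while in stress the dots of *Klf6* and *Klf11* are open in 9 of 17 settings.

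The stress libraries also held more RNA of enterocyte markers. All 6 of these genes (*Alpi*, *Apoa1*, *Apoa4*, *Fabp1*, *Sis* and *Slc5a1*) rose in stress, their summed level was 269 to 296 CPM in Ctrl against 1013, 521 and 1788 CPM in stress 1+2, 3 and 4+5+6, and none of them was at 0 in any library. Their part in the rises of *Klf9*, *Klf6* and *Klf11* was not tested. With all libraries the log2 fold change was 1.07 for *Klf9*, 0.66 for *Klf6* and 0.84 for *Klf11*. In the same order it was 1.08, 0.71 and 0.81 without stress 4+5+6, the library with the highest sum. It was 0.977, 0.603 and 0.702 without stress 1+2, and 1.16, 0.677 and 0.996 without stress 3. The stress libraries kept in each fit still summed above Ctrl, so these fits cannot separate the rises from the enterocyte RNA. In the library with the smallest sum, stress 3, *Klf9* and *Klf11* had their lowest stress values in CPM, whereas *Klf6* had its lowest, 42.3 CPM, in stress 4+5+6 and stood at 44.4 CPM in stress 3. Goblet markers summed to 466 to 1286 CPM in stress and 486 to 612 in Ctrl, with 1 of 6 called (*Clca1*), and Paneth markers to 168 to 261 and 135 to 172, with 1 of 6 called (*Mmp7*).

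In CORT vs. vehicle, 1 of 6 enterocyte markers was called (*Slc5a1*, higher), with sums of 362 to 437 CPM against 249 to 305. The higher sum was that of *Slc5a1* (341 ± 11.2 CPM in CORT and 192 ± 9.56 in vehicle, SD, n = 3), since the other 5 genes summed to 29.1 to 83.0 CPM in CORT and 65.7 to 115 in vehicle, with *Fabp1* at a log2 fold change of -1.26 ± 0.36 (edgeR, adjusted p = 0.0643). Paneth markers fell in 4 of 6 genes (*Mmp7*, *Defa17*, *Defa24* and *Itln1*), with sums of 105 to 118 CPM in CORT against 185 to 213 in vehicle, and 3 of 6 ISC markers (*Lgr5*, *Ascl2* and *Smoc2*) fell, as did the tuft marker *Pou2f3*. *Pecam1*, an endothelial marker, rose within a list of at most 4.07 CPM in sum. Blood markers summed to 81.3 to 380 CPM in CORT and 376 to 642 in vehicle, with 0 of the 2 tested genes called. Goblet markers summed to 391 to 724 CPM in CORT and 408 to 600 in vehicle, with 0 of 6 called. Of 6 enteroendocrine markers 0 were called in either comparison. The part of these shifts in the falls of *Klf4* and *Klf10* was not tested. The depth of CORT moved with the group as well. With every library thinned to the same total, the same number of members, 7, was called.

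Genes linked to the members by their known partners and targets were set beside them, by lists chosen with earlier results of these data known. Of the other 16 *Klf* and *Sp* genes, 8 were tested. In stress 0 were called, and in CORT 1, *Klf16*, a further Sin3-binding factor, fell by 0.98 on the log2 scale (SE 0.13, adjusted p = 0.0022). It was at 44.4 ± 6.78 CPM in vehicle and 22.9 ± 1.35 in CORT, and at 32.9 ± 2.63 in Ctrl and 24.8 ± 1.37 in stress (SD, n = 3). *Sp1* and *Sp3*, which compete for the same GC boxes, were at 15.6 ± 0.466 and 24.2 ± 1.20 FPKM in Ctrl and were called in neither comparison. Of 12 corepressor and coactivator genes (*Sin3a*, *Sin3b*, *Ctbp1*, *Ctbp2*, *Ep300* and others) and of 7 genes listed for KLF turnover (ubiquitin ligases, *Usp3* and *Cdh1*), all were tested and 0 were called in either comparison, with median log2 fold changes between -0.03 and 0.12. The symbol *Cdh1* is that of E-cadherin, an adhesion protein, whereas the ubiquitin ligase activator also known as Cdh1 has the symbol *Fzr1* and was not in the list.

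Of 6 genes linked to KLF4, 2 were higher and 1 lower in stress, namely *Alpi* (also an enterocyte marker), *Ccnb1* (a mitotic cyclin) and, lower, *Ccne1* (a G1/S cyclin, log2 fold change -1.15). In CORT 1 was called, *Cdkn1a*, the cell cycle inhibitor p21, at 7.64 ± 2.53 CPM in vehicle and 30.1 ± 12.9 in CORT (log2 fold change 1.95, adjusted p = 0.0110). It rose while *Klf4* fell. Of 8 genes linked to KLF5, *Ccnb1* was higher in stress, and *Pdgfa*, a growth factor, and *Ascl2*, a stem cell transcription factor, were lower in both comparisons, with *Lgr5* lower in CORT. *Ascl2* went from 143 ± 5.16 to 61.1 ± 7.59 CPM in stress and from 161 ± 11.4 to 81.7 ± 24.3 CPM in CORT (SD, n = 3), against the direction of *Klf5*. Of 10 genes linked to KLF15, the member *Klf3* among them, 8 were tested in stress and 10 in CORT. In stress 1 was higher, *Pck1* (gluconeogenesis), which spanned 2.71 to 37.1 CPM there and 1.69 to 2.00 CPM in Ctrl. In CORT 1 was higher, *Gpt2* (an alanine transaminase, log2 fold change 1.19, edgeR, adjusted p = 0.0212). *Prodh*, which breaks down proline, was called higher in vehicle vs. Ctrl only (0.60, adjusted p = 0.0360), a difference between comparisons that was not tested. The median log2 fold changes of these lists in stress and CORT were 0.17 and -0.03 for KLF4, -0.14 and -0.14 for KLF5 and 0.15 and 0.07 for KLF15. They were 0.12 and 0.02 for the other *Klf* and *Sp* genes and -0.12 and -0.01 for the TGF-beta genes, beside -0.0028 and 0.0139 over all genes. The lists were not sorted by whether a factor raises or lowers a gene, so a median near 0 can hide opposite changes.

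Genes known as direct GR targets gave a scale for these changes. Of 7, 6 rose in each treatment (*Fkbp5*, *Tsc22d3*, *Per1*, *Sgk1*, *Zbtb16* and *Ddit4*), with a median log2 fold change over the list of 1.72 in stress and 2.32 in CORT, against 1.07 and 1.48 for *Klf9*. *Fkbp5*, a chaperone that binds GR, also differed between the control groups, at 63.6 ± 5.16 CPM in Ctrl and 171 ± 29.4 in vehicle (SD, n = 3, log2 fold change 1.42, adjusted p = 4.0e-04). Of the 7, 1 was called higher and 2 lower in vehicle than in Ctrl by edgeR. The lower ones were *Sgk1*, a kinase of sodium transport (-1.25, adjusted p = 0.0206), and *Dusp1* (-3.60, adjusted p = 0.0196), which was called in neither treatment. Among the members, *Klf9*, *Klf6* and *Klf5* were lower in vehicle and *Klf10* and *Klf15* higher, all without passing the test.

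The members did not vary as 1 block across the 12 libraries. Given as a description, since the points share groups and depth, Pearson's r of log2 CPM was 0.92 for *Klf9* with *Klf5*. It was 0.82 for *Klf9* with *Klf6*, 0.81 for *Klf9* with *Klf13* and 0.88 for *Klf13* with *Klf15*. *Klf3*, *Klf4* and *Klf10* formed another set, with r between 0.75 and 0.78. *Klf4* ran against *Klf13* (-0.81) and *Klf15* (-0.79), and *Klf10* against *Klf13* (-0.69). Between *Klf6* and *Klf15* r was 0.08.

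**Figure D5:**
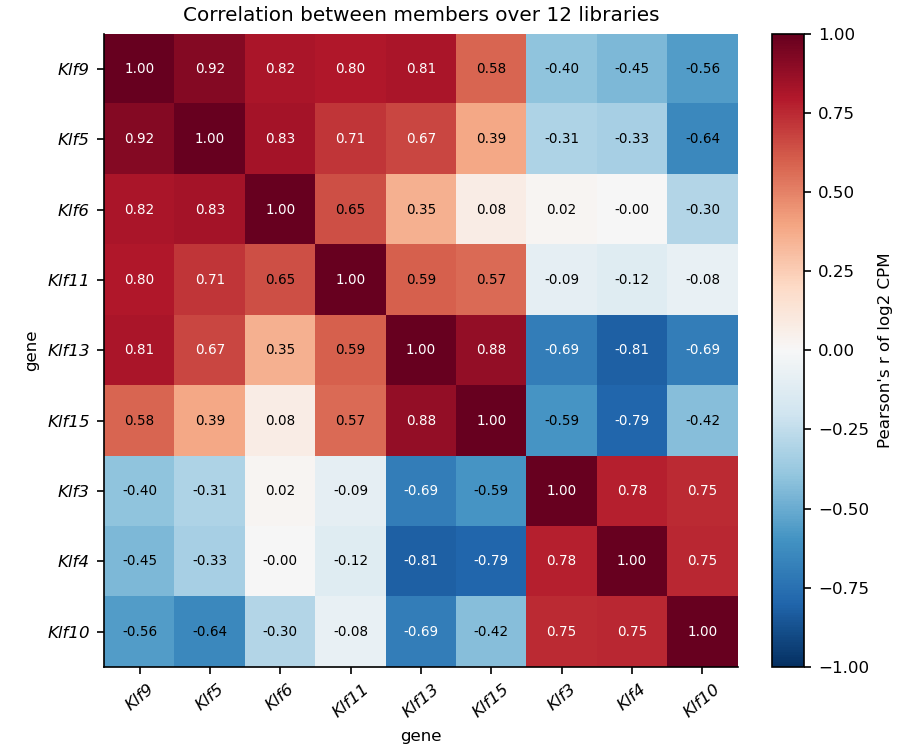
Pearson's r of log2 CPM over the 12 libraries between each pair of 9 members (both axes), coloured from -1 in blue to 1 in red with the value written in each cell. *Klf9*, *Klf5*, *Klf6* and *Klf11* form a red block with values of 0.65 to 0.92, and *Klf3*, *Klf4* and *Klf10* a second one with values of 0.75 to 0.78. *Klf13* reaches the values of the first block with *Klf9* (0.81) and *Klf5* (0.67) but not with *Klf6* (0.35).

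Among 14463 genes, the ones whose log2 CPM ran closest to *Klf9* over the 12 libraries were *Ypel2* (r = 0.99), *Sgk1* (0.98) and *Kif18a* (0.98). For *Klf15* they were *Pgm3* (0.96), *Fkbp5* (0.95) and *Bcl2l1* (0.95), and for *Klf13* *Hpgd*, *Glul* and *Wee1* (0.97 each). *Klf6* ran closest to *Klhl24* (0.97), *Naip1* (0.93) and *Zfp608* (0.93) and *Klf5* to *Iqgap3* (0.96), *Mier1* (0.94) and *Arrdc3* (0.94). For *Klf11*, r was 0.94 with *Mki67* and 0.93 with *Aaed1*. The 2 members that fell after corticosterone ran with other genes, *Klf10* with *Sema4a* (0.93), *Yes1* (0.90) and *Vsig10* (0.90), and *Klf4* with *Cdr2* (0.92), *Lgr5* (0.91) and *B4galt6* (0.90). *Naip1* has close paralogs, between which counts may be split.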

How the data were processed

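RNA of 12 libraries of sorted ISCs, 3 in each of 4 groups, was sequenced as paired 150-base reads, and each library was grouped by its label. The authors aligned the reads to mm10. The labels name HISAT2 2.2.1 and StringTie 2.2.1, whereas the methods of the study name other versions and featureCounts. The table the authors deposited holds estimated counts, whole numbers not divided by library size (median of 74.9 covered bases per count in single-transcript genes, so a count is not a fragment). Per library, the authors further deposited gene FPKM and mean coverage, a signal used here only to find what a count is. 0 columns were without a sample.
Counts were rounded and tested with edgeR 4.0.16 in R 4.3.3 (quasi-likelihood F-test, TMM, filterByExpr, Benjamini-Hochberg adjustment over all genes tested) on the 6 libraries of each comparison, and on all 12 for the difference of responses. A call is an adjusted p below 0.05. The standard error is the log2 fold change divided by the square root of F. CPM use TMM factors over 12 libraries, and correlations use log2 CPM with a prior count of 2. A symbol that occurred more than once (126 symbols) was taken as the gene with the highest mean count. No source says whether counting used strand.
Alternatives were DESeq2 1.42.0, its size factors, library totals, other filters on low counts, counts divided by 4, limma 3.58.1 on log2(FPKM + 1) and log2(FPKM + 0.1), all 12 libraries in 1 fit, and each library left out. Thinning to equal totals was added after the depth had been seen. In simulated counts with 200 changed genes, 68.8% of log2 changes of 1 were recovered in stress vs. Ctrl and 63.2% in CORT vs. vehicle, and 10.1% and 9.27% of the calls were false. The members and lists were chosen with earlier results of these data known. The text names all members, the list genes called in stress or CORT, and the 3 genes closest to each called member, except for a few genes that are not reported here. Other genes named, such as *Prodh* or the uncalled list genes, were chosen after their values were seen. Promoters are from RefSeq GRCm38.p6. Replicates are separate samples, and every pair within a group differed by more than counting noise (chi-square per gene 9.20 to 94.1).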

Additional observations from a re-analysis of the deposited data

How the results depend on the processing

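Of 657 recomputed values of single members, 595 had the reported direction and side of the threshold, 33 lost the call, 11 gained one and 18 changed sign. *Klf9* and *Klf13* were called in CORT under all 17 alternatives, and *Klf9* in stress under 16, all but log2(FPKM + 1) without a filter (adjusted p = 0.0857). The number of members called in stress, 3 as reported, was 5 with DESeq2 and with all 12 libraries in the fit, 1 with no filter on low counts, 1 with log2(FPKM + 1) and log2(FPKM + 0.1) at a mean FPKM of at least 1, 0 with log2(FPKM + 1) without a filter, and 1 to 4 with 1 library left out. In CORT, 7 as reported, it was 2 with log2(FPKM + 1) without a filter and 5 to 7 otherwise, with 5 to 6 when 1 library was left out. In vehicle vs. Ctrl, 0 as reported, it was 2 with DESeq2 and 1 with all 12 libraries, and in the difference of responses, 0 as reported, 2 with DESeq2 and 0 to 1 with 1 library left out (1 without stress 3).

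Values that changed sign were all near 0 and uncalled. *Klf3* in stress was -0.0354 without stress 4+5+6 and -0.0277 to 0.0905 with another library left out. *Klf4* in stress was -0.0676 without stress 1+2, -0.0488 without stress 4+5+6 and -0.108 to 0.168 with another left out. *Klf3* in vehicle vs. Ctrl was 0.00746 with log2(FPKM + 1), with or without the filter, 0.00769 with log2(FPKM + 0.1), and -0.0592 to 0.0470 with 1 library left out, where *Klf13* ranged from -0.0038 to 0.0870. *Klf6* in the difference of responses was 0.0076 with library totals, 0.0824 with log2(FPKM + 1), with or without the filter, 0.0608 with log2(FPKM + 0.1), 0.0272 without stress 4+5+6 and -0.0819 to 0.103 with another left out. The cause was not tested.

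Over all genes, 260 calls in stress became 27 with log2(FPKM + 1) without a filter and 849 without stress 3. The 1192 in CORT became 503 without CORT 4 and 1767 with DESeq2, the 109 in vehicle vs. Ctrl became 0 and 295, and the 56 in the difference became 12 without Ctrl 1 and 393 with DESeq2. In CORT 44.7% of calls were higher, and 29.1% with log2(FPKM + 1). No paired analysis was possible because no 2 groups compared share more than 1 number library by library. No source says that equal numbers in different groups mark partners. Stress 1+2 is read as a pool, so it would have no single Ctrl partner in any case. A fit with Ctrl 1 and Ctrl 2 summed to match its number was not run. Depth limits *Klf2*, and *Klf15* in Ctrl and stress.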
